A study of Homo sapiens with 9 samples.

Results

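The ADP-ribosylation factors (ARFs) are small GTPases that recruit coat proteins and lipid enzymes to membranes. The deposited table held a row for ARF1, ARF3, ARF4, ARF5 and ARF6, found by their Ensembl gene identifiers, which makes 5 of its 15354 rows. The values of ARF1 in these libraries had prompted the choice of the family, so ARF1 is described below without a test. The other members, its paralogs, were tested within a model fitted to all genes. They and the lists of related genes were also chosen with earlier results of these data known, so their p-values are not free of that choice. ARF1 was higher than control in the libraries labelled siRNA A and lower in those labelled siRNA B. Of its 4 paralogs, ARF3 was lower with siRNA A and ARF5 with siRNA B under every scaling tried. ARF4 was higher with both siRNAs, a call that was lost when 3 reference genes set the scale.

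The libraries were made from HCT116, a long-established human cell line of colorectal cancer. The cells had been reverse transfected with a small interfering RNA (siRNA) 36 h before. The labels give a dose of 25 nM, while the paper's general methods give a higher concentration for siRNAs. The 9 libraries came in 3 groups of 3: a commercial non-targeting siRNA (All-star negative control), siRNA A and siRNA B, both directed against the long non-coding RNA SNHG5. The comparison asked which transcripts differ once SNHG5 is depleted. All cells, controls included, were transfected cells of 1 line. The methods of the study call the replicates biological, without saying whether they were separate cultures, and the p-values measure the spread between these libraries. Which siRNA sequence was A and which was B was not given.

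SNHG5 itself went against the labels. It was at 35.6, 26.3 and 28.6 CPM (reads of a gene per 1000000 reads of the library) in the control libraries, 63.9, 50.0 and 61.5 CPM in those labelled siRNA A, and 47.8, 47.7 and 45.2 CPM in those labelled siRNA B. In deposited CPM the targeted RNA was thus higher than control in every library labelled as a knock-down. On the log2 scale explained below it was higher by 1.29 with siRNA A (adjusted p = 1.86e-05, limma) and 0.83 with siRNA B (adjusted p = 5.90e-04, limma). Scaling to reference genes, used below, lowered the change of every ARF against control, and SNHG5 is not given here under that scaling. By quantitative PCR in cells of the same line, the paper reports that both of its siRNAs lowered the targeted RNA. That assay used a higher siRNA concentration than the labels give here, and it was normalized to GAPDH. In these libraries GAPDH was at 2587, 2248 and 2226 CPM in the control. It was at 3496, 3725 and 2932 CPM with siRNA A and at 4027, 3260 and 3715 CPM with siRNA B. The cause of the difference between that assay and these libraries was not tested. Each direction below is that of libraries labelled siRNA A or siRNA B. Library totals ran from 15566530 to 23277549 reads, so that 1 CPM stood for 15.6 to 23.3 reads. Epithelial markers were present in every library, with KRT8 from 884 to 1601 CPM and EPCAM from 94.6 to 214 CPM. The leukocyte marker CD14 was at most 0.556 CPM and the fibroblast marker PDGFRB at most 0.337 CPM, while COL1A1 was at 8.55 to 19.5 CPM.

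ARFs cycle between a GDP-bound form in the cytosol and a GTP-bound form on membranes. Exchange factors (GEFs) load them with GTP, and GTPase-activating proteins (GAPs) make them hydrolyse it. On GTP loading ARFs of class I (ARF1 and ARF3) and class II (ARF4 and ARF5) recruit the COPI coat, the AP-1 adaptor, GGA proteins and golgins to the Golgi. ARF6, the class III member, works at the plasma membrane and on endosomes, in recycling, actin remodelling and phosphoinositide synthesis.

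The members are alike in sequence, which matters for reads of 50 bases. The 48 bases of coding sequence around the phosphate-binding loop, the stretch that grips the nucleotide, are shown because every ARF has this loop, so the bases that tell the members apart can be seen side by side. They were read from the GRCh37 genome with the GENCODE annotation, 5′ to 3′ on the strand of the gene, and capitals mark bases that differ from ARF1.
ARF1: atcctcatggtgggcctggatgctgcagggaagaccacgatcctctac
ARF3: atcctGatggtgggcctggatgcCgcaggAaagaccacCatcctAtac
ARF4: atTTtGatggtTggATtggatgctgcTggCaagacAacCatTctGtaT
ARF5: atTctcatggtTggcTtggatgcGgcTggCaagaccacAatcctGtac
ARF6: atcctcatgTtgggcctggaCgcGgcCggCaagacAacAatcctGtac

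The ARF1 stretch is at chr1:228284873-228284920 on the plus strand, in exon 2 of 5. That of ARF3 is at chr12:49334774-49334821 on the minus strand, also in exon 2 of 5, with 5 differences. That of ARF6 is at chr14:50360500-50360547 on the plus strand, in exon 2 of 2, with 8 differences. The stretches of ARF4 and ARF5 cross the junction of exons 1 and 2 of 6. They lie within chr3:57570154-57582810 on the minus strand for ARF4, with 13 differences, and within chr7:127228610-127229174 on the plus strand for ARF5, with 8 differences, with 1 intron left out of each.

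Over the whole coding sequence, ARF1 was 83.8% identical to ARF3, 75.7% to ARF5, 70.3% to ARF6 and 67.4% to ARF4. The longest run of bases shared by any pair was 23, shorter than a read, so no stretch of 50 coding bases of 1 member is identical to the matching stretch of another. Elsewhere in the genome, exact copies were found for 0 of 1791 windows of 50 bases of the ARF1 transcript, 0 of 3992 of ARF3 and 0 of 983 of ARF5. They were found for 85 of 1547 windows of ARF4, or 5.49%, and for 405 of 3826 windows of ARF6, or 10.6%, so reads of ARF4 and ARF6 could have been lost to, or shared with, copies at those places.

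The gene of ARF1 (ENSG00000143761) spans chr1:228270409-228286913 on the plus strand and holds the microRNA gene MIR3620. ARF3 (ENSG00000134287) spans chr12:49329506-49351270 on the minus strand and shares exonic bases with an unnamed coding gene model of the same strand. ARF4 (ENSG00000168374) spans chr3:57557090-57583947 on the minus strand, with the antisense gene ARF4-AS1 opposite its exons. ARF5 (ENSG00000004059) spans chr7:127228440-127231754 on the plus strand and shares exonic bases with GCC1 on the other strand and FSCN3 on its own. ARF6 (ENSG00000165527) spans chr14:50359797-50363772 on the plus strand and overlaps no other gene. Whether the counting used strand was not given in the sources used here for these libraries, so reads of such overlaps cannot be assigned with certainty.

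**Figure D1:**
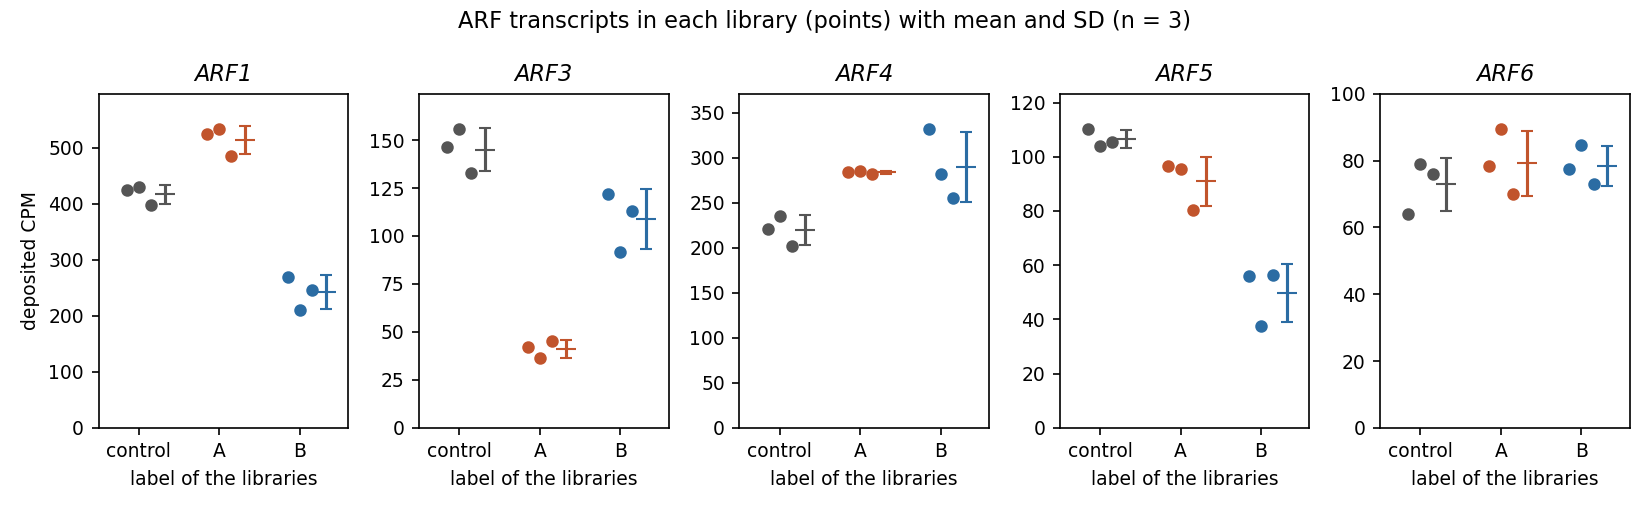
Deposited CPM of each ARF (vertical axes, from 0) in the 9 libraries, grouped by label, with the mean and SD beside the points (n = 3). ARF1 lay above the control with siRNA A and below it with siRNA B, ARF3 was at 36.2 to 45.3 CPM with siRNA A against 133 to 156 CPM in the control, and the groups of ARF6 overlapped.

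ARF1, the class I ARF best known for COPI recruitment at the Golgi, was at 424, 429 and 397 CPM in the control libraries. It was at 524, 533 and 484 CPM with siRNA A and at 269, 211 and 247 CPM with siRNA B. The groups did not overlap in any pairing, with siRNA A highest and siRNA B lowest. For comparison between libraries the CPM were scaled by TMM factors (trimmed mean of M values, a correction that sets most genes to no change), and differences are given as log2 fold changes of scaled CPM + 1. On that scale the difference of ARF1 from control was 0.67 for siRNA A, while for siRNA B it was -0.57. Between the siRNAs it was 1.24, and the SE was 0.10 each time. The size with siRNA A depended on the scaling: it was 0.30 with library totals alone and 0.06 after scaling to the reference genes GAPDH, RPLP0 and HPRT1.

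ARF3, the other class I ARF and the nearest paralog of ARF1, moved apart from it. It was at 146, 156 and 133 CPM in the control, at 41.9, 36.2 and 45.3 CPM with siRNA A, and at 122, 91.7 and 113 CPM with siRNA B. Every library of siRNA A was below every other library. With siRNA A ARF3 fell by 1.43 on the log2 scale (SE 0.11, adjusted p = 2.82e-06, limma), to 0.37 times the control, and 201 of the 13893 genes tested fell further. With siRNA B the difference was -0.21 (95% interval -0.44 to 0.02, adjusted p = 0.151, limma), and it passed the threshold only when library totals or the reference genes set the scale (-0.42, adjusted p = 0.0242, and -0.86, adjusted p = 2.92e-04). ARF3 was lower with siRNA A than with siRNA B by limma (-1.23, SE 0.11, adjusted p = 1.84e-05), a comparison that used no control library for its direction.

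ARF4, a class II ARF of the early secretory pathway, was higher with both siRNAs. Its values were 221, 235 and 202 CPM in the control, 285, 285 and 282 CPM with siRNA A, and 332, 282 and 255 CPM with siRNA B. All libraries of either siRNA were above all controls, while the siRNA groups overlapped each other. The log2 fold change was 0.74 (SE 0.10, adjusted p = 1.25e-04, limma) with siRNA A and 0.61 (SE 0.10, adjusted p = 8.75e-04, limma) with siRNA B. Scaled to the reference genes, these became 0.13 (adjusted p = 0.446) and -0.05 (adjusted p = 0.770), so the direction with siRNA B rests on the scaling. No difference between the siRNAs passed the test, the interval running from -0.09 to 0.35.

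ARF5, the other class II ARF, fell with siRNA B. It was at 110, 104 and 106 CPM in the control, 96.6, 95.6 and 80.4 CPM with siRNA A, and 55.8, 37.5 and 56.2 CPM with siRNA B. The libraries of siRNA B were below all others. ARF5 fell by 0.89 on the log2 scale with siRNA B (SE 0.14, adjusted p = 7.02e-04, limma), and 545 genes fell further. With siRNA A the deposited CPM were all under the control, yet after TMM scaling the groups overlapped and the difference was 0.13 (-0.18 to 0.45, adjusted p = 0.456, limma). It turned to -0.23 with library totals alone (adjusted p = 0.202) and to -0.47 with the reference genes (adjusted p = 0.00655). Against siRNA B, ARF5 was higher with siRNA A by 1.03 (SE 0.14, adjusted p = 2.85e-04, limma).

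GCC1, whose exons overlap those of ARF5 on the other strand and which codes for a golgin, was at 47.1 to 59.4 CPM in the control, 50.6 to 60.3 CPM with siRNA A and 35.2 to 42.3 CPM with siRNA B. It differed from control on the log2 scale by 0.41 with siRNA A (adjusted p = 0.0120, limma) and -0.29 with siRNA B (adjusted p = 0.0815, limma). The part of GCC1 reads in the ARF5 row, and of ARF5 reads in the GCC1 row, was not tested.

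ARF6 changed least in the deposited values. It was at 63.9, 78.9 and 76.1 CPM in the control, 78.3, 89.4 and 69.9 CPM with siRNA A, and 77.4, 84.7 and 72.9 CPM with siRNA B, and all groups overlapped. TMM scaling separated the siRNA groups from the control. ARF6 then rose by 0.48 with siRNA A (SE 0.13, adjusted p = 0.0103, limma), a call that library totals alone did not give (0.12, adjusted p = 0.454) and that turned to -0.13 with the reference genes (adjusted p = 0.535). With siRNA B the difference was 0.31 (0.02 to 0.60, adjusted p = 0.0891, limma).

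Counted over the 4 paralogs, 2 were called higher and 1 lower with siRNA A, a call being an adjusted p under 0.05. Of all genes tested 51.4% were called there, 23.9% higher and 27.6% lower. With siRNA B, 1 was called higher and 1 lower, where 34.0% of all genes were called, 15.6% higher and 18.3% lower. Between the siRNAs 1 was called in each direction, beside 37.1% of all genes, 17.6% higher and 19.5% lower with siRNA A. Groups without overlap were common too: the deposited CPM of siRNA A and control did not overlap for 63.1% of all genes (59.5% after scaling), those of siRNA B and control for 48.4% (47.6%), and those of the siRNAs for 47.5% (47.6%). The comparisons with control share the same control libraries, so the rise of ARF4 in both is not a pair of independent observations.

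**Figure D2:**
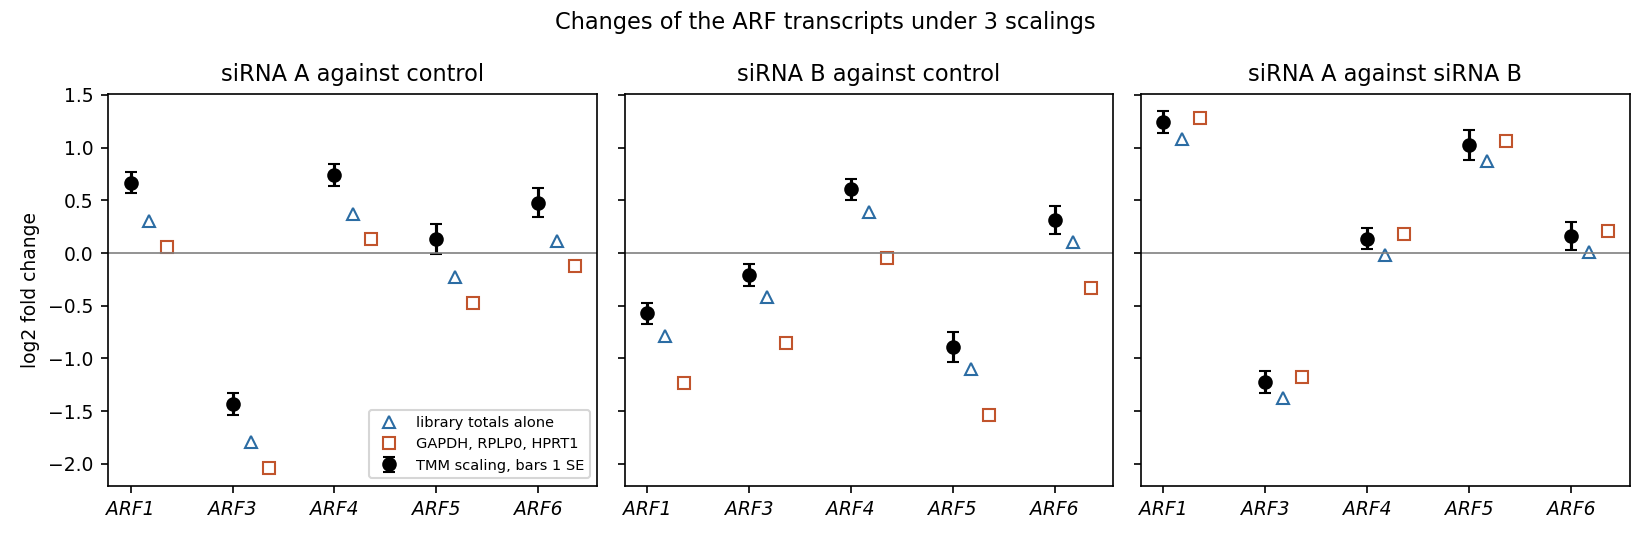
Log2 fold changes (vertical axis) of the ARFs in the 3 comparisons. Filled circles with bars of 1 SE used TMM scaling, triangles library totals alone and squares GAPDH, RPLP0 and HPRT1. The other scalings shift all members of a panel by nearly the same amount, so the distances between members stay (ARF3 against ARF1 with siRNA A) while the position of zero moves, as for ARF1 with siRNA A, from 0.67 to 0.06.

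Ratios between members within a library do not depend on the scaling. The log2 ratio of ARF1 to ARF3 CPM was 1.52 ± 0.06 in the control (SD, n = 3 here and below), 3.65 ± 0.23 with siRNA A and 1.16 ± 0.04 with siRNA B. No value of one group fell within the range of another. The ratio of ARF1 to ARF4 was 0.93 ± 0.05 in the control and 0.85 ± 0.07 with siRNA A, ranges that overlapped, and -0.26 ± 0.19 with siRNA B. That of ARF1 to ARF5 was 1.97 ± 0.07, 2.50 ± 0.08 and 2.30 ± 0.18 in the same order. ARF1 to ARF6 gave 2.52 ± 0.18, 2.70 ± 0.11 and 1.62 ± 0.27. With siRNA A, then, ARF1 and ARF4 kept their proportion within the spread, while ARF3 and, to a lesser degree, ARF5 lost ground to ARF1, whereas with siRNA B ARF1 lost ground to ARF3, ARF4 and ARF6, and ARF5 lost even more than ARF1.

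Levels of different genes can be compared only per length, here as deposited CPM per kilobase of all annotated exons. In the control ARF1 led with 129 ± 5.35 CPM per kb, followed by ARF4 with 84.6 ± 6.39, ARF5 with 58.4 ± 1.77, ARF3 with 29.4 ± 2.30 and ARF6 with 18.4 ± 1.99, and no neighbours in this order overlapped. With siRNA A ARF1 (159 ± 8.0), ARF4 (109 ± 0.638) and ARF5 (49.8 ± 4.98 CPM per kb) kept their places. ARF6 (19.9 ± 2.45) then stood above ARF3 (8.33 ± 0.925 CPM per kb), again with no overlap between neighbours. With siRNA B ARF4 (112 ± 14.9) was above ARF1 (75.0 ± 9.15 CPM per kb). ARF5 (27.3 ± 5.85), ARF3 (22.0 ± 3.16) and ARF6 (19.7 ± 1.5 CPM per kb) overlapped each other there.

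**Figure D3:**
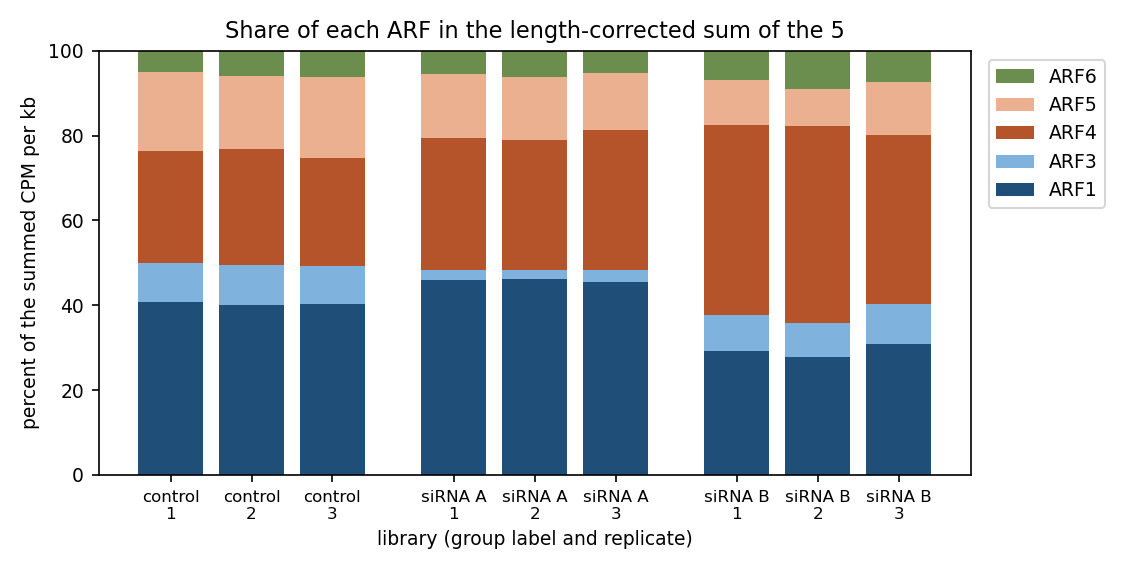
Share of each ARF (percent, vertical axis from 0 to 100) in the summed CPM per kb of the 5 members, 1 bar a library. ARF1 made up 40.0 to 40.7% in the control, 45.5 to 46.2% with siRNA A and 27.8 to 30.9% with siRNA B, where ARF4 took 39.9 to 46.4%.

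As shares of that sum, which no scaling changes, ARF1 held 40.3 ± 0.324% in the control libraries, against 45.9 ± 0.352% for siRNA A and 29.3 ± 1.56% for siRNA B. ARF3 held 9.18 ± 0.331%, 2.41 ± 0.364% and 8.61 ± 0.674%, with siRNA A below the others and overlap between control and siRNA B. ARF4 held 26.4 ± 0.879%, 31.6 ± 1.20% and 43.7 ± 3.38%, larger with each siRNA than in any control library. ARF5 went from 18.3 ± 0.988% to 14.4 ± 0.858% and 10.6 ± 1.86%, with no overlap between groups. ARF6 took 5.75 ± 0.677%, 5.74 ± 0.499% and 7.78 ± 1.18%. These shares rest on the length used: with the longest transcript of each gene ARF1 held 46.4%, 51.0% and 33.6%.

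The sums describe how the total of the members changed beside ARF1. Whether any paralog offset ARF1 was not tested. After TMM scaling the 5 members together gave 279 ± 3.85 CPM per kb in the control libraries, against 392 ± 30.0 for siRNA A and 258 ± 15.6 for siRNA B, where 1 library lay within the range of the control. The deposited sums were 320 ± 13.7, 346 ± 14.9 and 256 ± 26.9 CPM per kb, and there all libraries of siRNA B were below all controls. After TMM scaling, with siRNA B the mean of ARF1 was lower than control by 36.9 CPM per kb and that of ARF4 was higher by 39.0, while ARF5 was lower by 23.5 and ARF3 by 3.37. With siRNA A ARF1 was higher by 67.0 and ARF4 by 49.7 CPM per kb, against a loss of 16.3 for ARF3. In deposited CPM, without TMM, the ARF1 loss with siRNA B was 53.9 CPM per kb and the ARF4 gain 27.1. With the reference genes as the scale, the log2 fold change of ARF4 with siRNA B was -0.05, which is no gain. How far ARF4 matched ARF1 thus depended on the scaling. By class, the scaled sum of ARF1 and ARF3 was 138 ± 2.90 CPM per kb in the control libraries, against 189 ± 14.4 for siRNA A and 98.0 ± 8.47 for siRNA B. That of ARF4 and ARF5 was 125 ± 2.66, 180 ± 12.0 and 140 ± 11.1 CPM per kb. In deposited CPM the class II sum with siRNA B was 139 ± 16.8 against 143 ± 6.31 in the control, so its direction turned with the scaling. These are transcript levels in bulk RNA, and protein was not measured.

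Genes with a profile most like that of a member were sought by Pearson's r of scaled log2 values over the 9 libraries, among 9100 genes with a mean of at least 10 CPM. For ARF1 these were MAPRE1 (r = 0.994), which binds growing microtubule ends, DHCR7, an enzyme of cholesterol synthesis, GNPDA1, PRPS1 and RPIA (r = 0.992). ARF3 was most like TP73 and DNAJA3 (both r = 0.993). ARF4 was most like KDELR2 (r = 0.992), the receptor that returns escaped proteins to the endoplasmic reticulum, and ALG13 (r = 0.987). For ARF5 the nearest were NUCB1 and TAGLN2 (both r = 0.988), and for ARF6 they were PIGT (r = 0.975) and CLK3 (r = 0.972). The 9 points of each r come from 3 groups and share the libraries and their scaling, so these values describe the profiles only.

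Genes that act with the ARFs were taken from 9 lists, of which 123 genes were tested. With siRNA A 35 of them were higher and 37 lower, and with siRNA B 19 were higher and 30 lower. The called shares, 58.5% and 39.8%, stand beside 51.4% and 34.0% of all genes. In both comparisons together 12 were higher and 22 lower, 27.6% in the same direction where 21.9% of all genes were so called. With other scalings the zero moves: the median of all genes, -0.02 with siRNA A and 0.00 with siRNA B after TMM, became -0.34 and -0.18 with library totals and -0.56 and -0.58 with the reference genes.

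**Figure D4:**
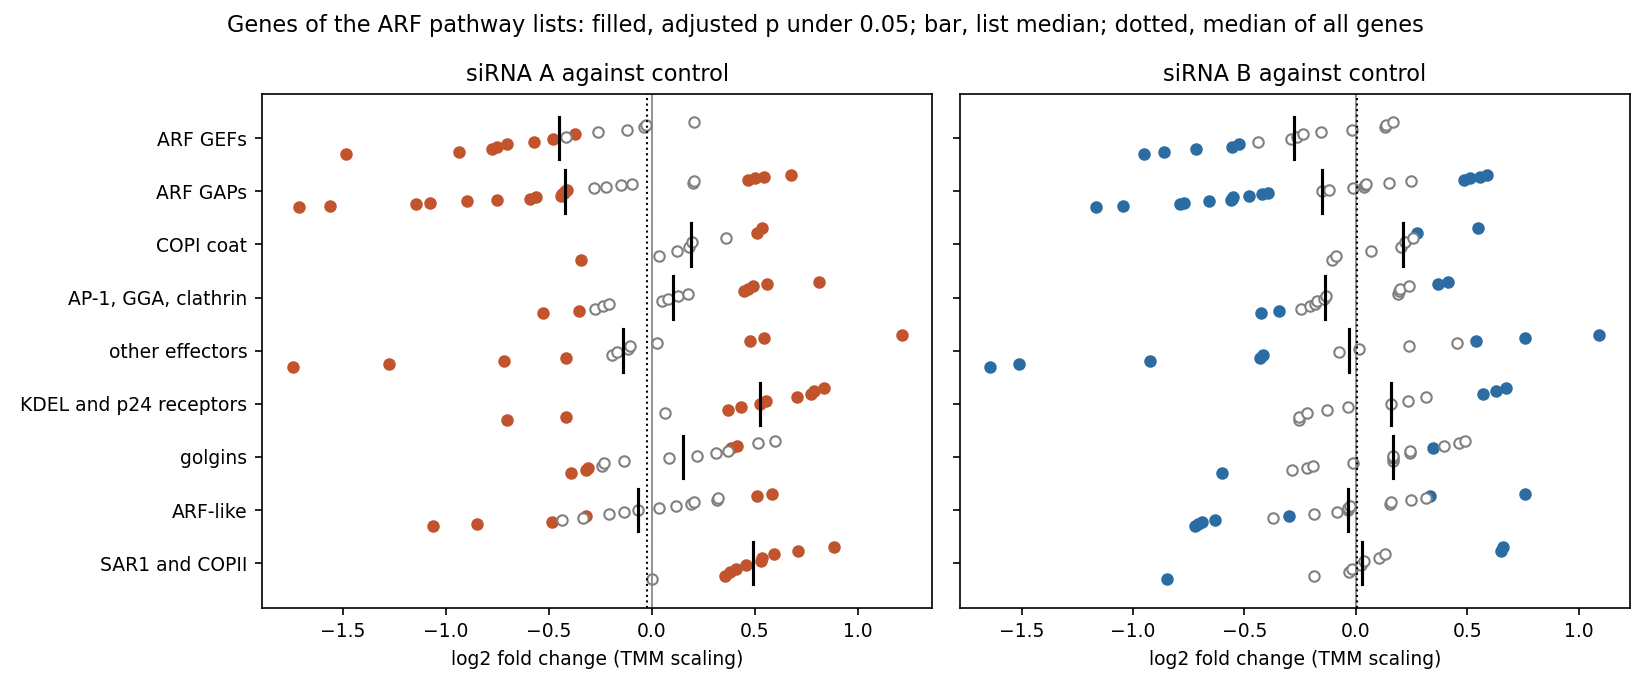
Log2 fold changes (horizontal axes) of the genes of the 9 lists against control, 1 point a gene, filled where the adjusted p was under 0.05. Bars mark the median of a list and dotted lines that of all genes. No ARF GEF was called higher in either panel. Of 10 SAR1 and COPII genes, 9 were called higher with siRNA A and 2 with siRNA B. Of all genes, 23.9% and 15.6% were called higher.

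Of the 14 ARF GEFs tested, 8 were lower with siRNA A and 5 with siRNA B, and none was higher by limma. That is 57.1% and 35.7% called, where 51.4% and 34.0% of all genes were called, 27.6% and 18.3% of them lower. The list medians were -0.45 and -0.28. The same 5 genes were lower with both siRNAs, 35.7% of the list where 21.9% of all genes were called alike. They were GBF1, the GEF of ARFs at the early Golgi, ARFGEF3, IQSEC1, PSD and PSD3. Without control replicate 2 these were 2, IQSEC1 and PSD, and without control replicate 3 they were 3, IQSEC1, PSD and ARFGEF3. The call of PSD3 with siRNA B was lost without any of 5 of the 9 libraries. IQSEC1, which acts on ARF6 in cell adhesion and recycling, had the largest fall with siRNA A. It was at 21.7, 33.8 and 28.4 CPM in the control, 6.42, 7.84 and 6.96 CPM with siRNA A and 13.4, 13.2 and 11.4 CPM with siRNA B, with no overlap between any groups. Its log2 fold changes were -1.49 (SE 0.15, adjusted p = 2.28e-05, limma) and -0.86 (adjusted p = 0.00144, limma). ARFGEF3 fell most with siRNA B (-0.95, adjusted p = 5.16e-04, limma). GBF1 fell by 0.37 with siRNA A (adjusted p = 0.0246, limma), a call that was lost with a correction for GC content (-0.25, adjusted p = 0.108), and by 0.72 with siRNA B. Without control replicate 2, 5 GEFs in place of 8 were called with siRNA A.

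Of the 23 ARF GAPs, 13 were lower and 4 higher with siRNA A, and 11 were lower and 4 higher with siRNA B. The called shares, 73.9% and 65.2%, stand beside 51.4% and 34.0% of all genes. List medians were -0.42 and -0.15. In the same direction with both siRNAs were 56.5%, where 21.9% of all genes were so called. Lower with both were 10: ASAP3, GIT1, AGAP1, AGAP2, ADAP1, ADAP2, SMAP2, ARAP1, ARAP2 and ARAP3. That count was 6 without control replicate 2, control replicate 3 or siRNA B replicate 1, and ASAP3, GIT1, ADAP2, SMAP2 and ARAP1 were among the 6 each time. The call of ADAP1 with siRNA A was lost when any of 7 of the 9 libraries was left out. The ARAPs hold a second GAP domain beside that for ARFs, and GIT1 is a scaffold of focal adhesions. ASAP3 fell most with siRNA A (-1.71, SE 0.16, adjusted p = 9.87e-06, limma), from 9.61, 14.0 and 9.84 CPM to 1.85, 1.73 and 2.40 CPM. GIT1 fell most with siRNA B (-1.16, SE 0.12, adjusted p = 4.80e-05, limma), from 95.1, 122 and 99.7 CPM to 40.3, 40.9 and 38.4 CPM. The libraries of ASAP3 and GIT1 did not overlap between control and either siRNA.

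Higher with both siRNAs were 3 GAPs, ASAP1, SMAP1 and AGFG1, which binds clathrin adaptors. SMAP1 rose most, by 0.67 with siRNA A (adjusted p = 0.00182, limma) and 0.59 with siRNA B (adjusted p = 0.00710, limma). With library totals alone 0 of 23 GAPs stayed higher with siRNA A and 2 with siRNA B, while 17 and 12 were lower. Of all 13893 genes, 7789 and 5085 were called under that scaling, 16.1% and 18.8% of them higher. With the GC correction 11 and 8 were lower, where 6903 and 4651 of 13502 genes were called, 50.4% and 48.8% of them higher.

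The COPI coat is the main ARF1 effector at the Golgi. Of its 8 subunits tested 2 were higher and 1 lower with siRNA A, and 2 higher with siRNA B, with medians of 0.19 and 0.21. At 37.5% and 25.0%, the called shares were under the 51.4% and 34.0% of all genes. COPA was the only subunit higher with both, by 0.51 (adjusted p = 0.00147, limma) and 0.55 (adjusted p = 0.00169, limma), though with library totals it was 0.14 with siRNA A (adjusted p = 0.279). COPB1 rose by 0.53 with siRNA A (adjusted p = 4.90e-04, limma), and COPB2 fell by 0.35 (adjusted p = 0.0309, limma). Counts of 1 to 4 subunits were called with siRNA B once single libraries were left out.

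AP-1, GGA proteins and clathrin form the ARF-recruited coats of the trans-Golgi. Of their 14 genes, 5 were higher and 2 lower with siRNA A, and 2 and 2 with siRNA B. These calls made up 50.0% and 28.6% of the list, no more than the 51.4% and 34.0% of all genes. The clathrin heavy chain CLTC rose with both, by 0.81 (adjusted p = 5.75e-04, limma) and 0.41 (adjusted p = 0.0387, limma). GGA3 fell with siRNA A (-0.53, adjusted p = 0.00265, limma) and AP1M1 with siRNA B (-0.43, adjusted p = 0.0199, limma). Without control replicate 2 none of the 14 was called with siRNA B by limma.

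Among 12 other effectors, 3 were higher and 4 lower with siRNA A, and 3 and 5 with siRNA B. Their called shares were 58.3% and 66.7%, beside 51.4% and 34.0% of all genes. PIP5K1A, a kinase that makes the lipid PI(4,5)P2 and is activated by ARF6, was at 107, 125 and 124 CPM in the control, 211, 213 and 219 CPM with siRNA A and 223, 233 and 202 CPM with siRNA B. It rose by 1.21 (SE 0.10, adjusted p = 6.32e-06, limma) and 1.09 (adjusted p = 2.38e-05, limma), and stayed above control with the reference genes (0.60 and 0.44). RAB11FIP4, which binds ARFs and RAB11 on endosomes, fell by 1.75 with siRNA A (adjusted p = 1.19e-05, limma) and by 1.64 with siRNA B (adjusted p = 3.87e-05, limma).

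The arfaptin ARFIP1, is described because its values, once seen, stood apart between the siRNAs. It was at 40.5, 45.0 and 39.1 CPM in the control, 27.2, 25.8 and 32.9 CPM with siRNA A and 12.8, 12.2 and 10.9 CPM with siRNA B. All libraries of siRNA B were below all others. The log2 fold change was -0.17 with siRNA A and -1.51 with siRNA B, given as a description.

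KDEL and p24 receptors, the cargo receptors of COPI transport, were mostly higher with siRNA A, 8 of 11 with 2 lower, and 3 of 11 were higher with siRNA B. The called shares were 90.9% and 27.3%, beside 51.4% and 34.0% of all genes, and the medians were 0.53 and 0.16. KDELR1, KDELR2 and TMED2 rose with both, KDELR2 by 0.77 (adjusted p = 5.27e-05, limma) and 0.67 (adjusted p = 2.64e-04, limma). TMED7 rose most with siRNA A (0.83, adjusted p = 0.00234, limma), and KDELR3 fell (-0.71, adjusted p = 2.24e-04, limma). With library totals alone 4 and 3 were higher and 3 and 4 lower. Of all 13893 genes, 7789 and 5085 were called under that scaling, 16.1% and 18.8% of them higher.

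SAR1 and the COPII coat, the related GTPase system of exit from the endoplasmic reticulum, had 9 of 10 genes higher with siRNA A and 2 higher and 1 lower with siRNA B, with medians of 0.49 and 0.03. Called were 90.0% and 30.0%, beside 51.4% and 34.0% of all genes. Between the siRNAs 6 of 10 were higher with siRNA A and 0 lower, where 17.6% of all genes were higher and 19.5% lower. SEC24A rose most with siRNA A (0.89, adjusted p = 7.11e-04, limma) and SEC31A with siRNA B (0.66, adjusted p = 0.00108, limma). SAR1A fell with siRNA B by 0.85 (adjusted p = 8.24e-04, limma) and was at 0.00 with siRNA A. Of the 10, 2 stayed higher with siRNA A under library totals and 0 with the reference genes. Few genes of any kind were called higher under these scalings. Of 13893 genes, 7789 were called with library totals, 16.1% of them higher, and 8856 with the reference genes, 5.56% of them higher.

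Golgins and the ARF-like proteins were mixed. Of 14 golgins and Golgi structure genes, 2 were higher and 3 lower with siRNA A, and 1 and 1 with siRNA B. These shares of 35.7% and 14.3% were under the 51.4% and 34.0% of all genes. The count with siRNA A fell to 1 without control replicate 3. GOLGA5 went opposite ways, by -0.31 (adjusted p = 0.0161, limma) and 0.35 (adjusted p = 0.0148, limma), the rise being lost with library totals (0.14). GOLGA1 was lowest with siRNA A (-0.39, adjusted p = 0.0278, limma) and GORASP1 with siRNA B (-0.60, adjusted p = 0.00124, limma). GOLGA4, GOLGB1, GCC2 and TRIP11, none of them called, varied widely within every group. GOLGA4 was at 302 to 710 CPM in the control, 189 to 596 CPM with siRNA A and 317 to 701 CPM with siRNA B. Of 17 ARF-like genes, 2 were higher and 4 lower with siRNA A, and 2 and 5 with siRNA B. This made 35.3% and 41.2%, against 51.4% and 34.0% of all genes. ARL1, which recruits golgins to the trans-Golgi, fell with both (-1.06, adjusted p = 1.26e-05, limma, and -0.72, adjusted p = 3.05e-04, limma).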

How the data were processed

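Polyadenylated RNA was selected with oligo-dT, per the labels, and sequenced in single-end reads of 50 bases. The authors deposited 1 table of CPM values, reads per gene over the library total. Its low values were whole multiples of 1 read, so reads were recovered for 100.0% of values (tolerance 0.001). Tools named in the submitters' processing notes are TopHat2 and HTSeq, with GRCh37 and hg19 as builds; whether strand was used was not given in the sources used here. Of 15354 identifiers, 14871 matched GENCODE on GRCh37.

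TMM factors (edgeR 4.0.16) ran from 0.850 to 1.192. Genes with at least 1 CPM in 3 libraries (13893) were tested by limma 3.58.1 on log2(CPM + 1), with a group mean, a variance trend and Benjamini-Hochberg adjustment over all genes. This scale understates changes of low genes. The tests had been planned for CPM and were checked on simulated data. There a small set of genes was changed, in equal numbers up and down, with siRNA A only. That check could not probe the scaling in data where 51.4% of genes were called with siRNA A. Alternatives were edgeR and DESeq2 1.42.0 on recovered reads, other scalings, a GC correction, filters, pseudocounts, the replicate block and leaving out libraries. Named genes were the members, in each list the called genes of largest change in each direction against control and, for GEFs, GAPs and COPI, genes called alike in both, plus the nearest profiles. Members and lists were chosen with earlier results of these data known. IQSEC3, PSD2, COPZ2 and ARL11 were not analysed here, and some genes that the naming rule takes are not reported here. PIP5K1B and ARL14 were under the filter. Replicates differed beyond counting noise (chi-square per degree of freedom at least 13.0). Same-numbered libraries deviated together for siRNA A and control (r = 0.65, 0.41 and 0.13), but not in every pair for siRNA B and control (0.17, 0.44 and -0.39).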

Additional observations from a re-analysis of the deposited data

How the results depend on the processing

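Scaling moved the members most. With library totals alone ARF1 was at 0.30 with siRNA A, -0.79 with siRNA B and 1.09 between the siRNAs; ARF6 with siRNA A was at 0.12 and no longer called, and ARF3 with siRNA B reached -0.42 and was called. Scaled to GAPDH, RPLP0 and HPRT1, which rose or stood above control after TMM (GAPDH by 0.89 and 0.85, HPRT1 by 0.77 and 0.44), ARF1 was at 0.056 and -1.23, ARF4 at 0.13 and -0.049, GCC1 with siRNA A at -0.19, ARF5 with siRNA A at -0.47 and called, ARF6 with siRNA A at -0.13, and ARF3 with siRNA B at -0.86 and called; 9312 genes and 90 list genes were then called with siRNA B, and 24 list genes between the siRNAs. The share of higher genes among those called with siRNA A was 46.4% with TMM, 16.1% with totals and 5.56% with the reference genes, and with siRNA B 46.0%, 18.8% and 1.76%. The GC correction put ARF1 at 0.80 and -0.47.

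In the fit with a replicate block, ARF6 with siRNA B was called at 0.31 (limma adjusted p = 0.0353), where the numbers were not shown to pair the libraries; the block changed no other call of a member. edgeR and DESeq2 on recovered reads, both filters and the pseudocount of 0.1 changed no call of a paralog. Leaving out 1 library changed none either: ARF1 stayed within 0.61 to 0.73 with siRNA A, -0.63 to -0.51 with siRNA B and 1.17 to 1.31 between them, ARF3 with siRNA A within -1.48 to -1.37 and ARF5 with siRNA B within -0.99 to -0.73. Of the list calls, 23 of 72 with siRNA A and 18 of 49 with siRNA B were lost without at least 1 library, among them ARFGEF3, GBF1, AGAP2, ADAP1, ARAP3, COPB2, GOLGA1 and GOLGA5 with siRNA A, and PSD, PSD3, AGAP1, AGAP2, ARAP2, ARAP3, CLTC, AP1M1 and GOLGA5 with siRNA B. The cause of these shifts was not tested. Counts of reads did not limit the members, which had at least 564 reads in each library.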
